A study of Mus musculus with 14 samples.

Results

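The genes described here are 33 markers of the cells of blood vessels: 23 of endothelial cells, which line the vessel, and 10 of mural cells, the pericytes and smooth muscle cells around it. They were chosen by symbol as usual markers of these cells, and all 33 are among the 25229 symbols of the table of the progenitor experiment and the 55353 of the postmitotic experiment. RNA came from layer II/III microdissected from the cortex of mice at postnatal day 5 after dissociation with trypsin, and every animal carried Lhx2lox/lox, floxed alleles of a LIM-homeodomain transcription factor. In the progenitor experiment, dividing progenitors at E15.5 received a plasmid by in utero electroporation, either EGFP alone (control, n = 4) or Cre-EGFP (labelled mutant, n = 4). In the postmitotic experiment EGFP was electroporated into cortex with no Cre (control, n = 3) or into NexCre/+; Lhx2lox/lox cortex (labelled mutant, n = 3), where Cre comes from the Nex (Neurod6) locus and is made in young excitatory neurons. The labelled cell type is a neuron. The series asks how loss of Lhx2 in progenitors or in postmitotic neurons acts on the dendrites of these neurons. Nothing in the labels says that libraries of a group came from separate animals, so p-values measure the spread between these libraries only.

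Endothelial cells of the brain form the blood-brain barrier: tight junctions seal the gaps between them, and transporters carry glucose, lipids and other solutes across. Vessels grow into the cortex under the control of VEGF and of Wnt ligands from neural cells, and endothelial cells recruit pericytes by PDGF-B, whose receptor on pericytes is Pdgfrb. Smooth muscle cells of arterioles are marked by the contractile proteins Acta2, Tagln and Myl9.

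Library totals ran from 22677019 to 29497595 counts in the progenitor experiment and from 21605777 to 25891416 in the postmitotic one. Transcripts of vessel cells were present in every library of this labelled neuronal material, and the lowest count of any member in a progenitor library was 20. The summed level of the 9 excitatory neuron markers was 6234 to 6908 counts per 1000000 (CPM, scaled by TMM factors) in the progenitor libraries, against 454 to 750 CPM for the 23 endothelial members. Lhx2 itself was not lower in libraries labelled mutant: it averaged 127 ± 9.09 CPM in control and 129 ± 11.4 CPM in mutant progenitor libraries (SD, n = 4), and rose by 0.29 ± 0.06 (log2, SE; edgeR adjusted p = 0.0276) in the postmitotic ones, so mutant means the library's label here. Counts are per gene symbol and do not tell exons apart, so they cannot show whether the floxed part of Lhx2 was removed. Neurod6, the locus that carries Cre in the postmitotic experiment, was lower in its libraries labelled mutant, at 111 ± 18.6 CPM against 170 ± 7.66 CPM in the controls (SD, n = 3), a log2 fold change of -0.61 ± 0.11 (edgeR adjusted p = 0.0135). Reads of 4 Y-linked genes were above 1 CPM in 0 of 4 control and 3 of 4 mutant progenitor libraries, and in 2 of 3 control and 1 of 3 mutant postmitotic libraries. In the progenitor experiment the label therefore runs largely with Y reads, a sign of male tissue, and mutant 1 is the only mutant library without them. Mutant 3 held both Y-linked reads (99.3 CPM) and Xist, an RNA of female cells (554 CPM). Xist was at 8.01 CPM in mutant 2 and 0.13 CPM in mutant 4. Whether a library held tissue of both sexes was not tested.

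In the progenitor experiment 3 of the 33 members were higher in libraries labelled mutant and none was lower. These were Vwf among the 23 endothelial members, and Abcc9 and Rgs5 among the 10 mural members. The test was edgeR's quasi-likelihood F test, with p adjusted by Benjamini-Hochberg over all 15295 tested genes and a threshold of 0.05; 23.4% of those genes were called, 12% as higher and 11.4% as lower. The 1 of 23 endothelial members called is a smaller share than the 12% called as higher. The share of mural members, 2 of 10, lies between that 12% and the 23.4% called in either direction. With 10 members a single gene moves this share far. At an unadjusted p under 0.05 there were 9 members, where 37.1% of all tested genes passed that level. The libraries of the 2 groups did not overlap for 2 members, Vwf and Abcc9, both higher in mutants, where 13.7% of all tested genes lay without overlap higher and 13.3% lower. Most other members leaned the same way without passing: 26 of the 30 members not called had a log2 fold change above 0, where 50.8% of all tested genes did. The median log2 fold change was 0.22 over the endothelial and 0.27 over the mural members, against 0.00 over all tested genes.

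Vwf encodes von Willebrand factor, the clotting glycoprotein that endothelial cells store and release and that tethers platelets to an injured vessel wall. The progenitor controls, in order of their numbers, had 16.4, 11.9, 14.9 and 11.4 CPM of it, and the mutants had 47.2, 30.8, 38.7 and 41.7 CPM. All 4 mutant libraries lay above all 4 controls, and the lowest mutant library was well above the highest control. The rise was 1.54 ± 0.15 on the log2 scale (SE, 95% interval 1.20 to 1.88), or 2.90-fold, with an edgeR adjusted p of 0.000221. It rested on 313 to 402 counts per control library and 714 to 1085 per mutant library. The gene lies on chromosome 6 at 125546774-125686679 (GRCm38, plus strand), and no other annotated exon overlaps its own.

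The other endothelial members did not follow Vwf to that extent. Among them the highest log2 fold change was 0.41, and Vwf made up 2.32% to 3.34% of the summed CPM of the 23 members in the controls but 6.14% to 7.09% in the mutants. This share restates the rise of Vwf beside the smaller differences of the other members and is no separate test. In the bulk RNA of a tissue, more or fewer cells of a type cannot be told apart from more or less RNA in each cell. In mutant 1, without Y reads, Vwf was at 47.2 CPM, the highest value of the 8, and Abcc9 (26.9 CPM) and Rgs5 (137.5 CPM) were also above all 4 controls there. The same held in that library for 27 of the 33 members, 24 of them not called, such as Cldn5 and Tek, so it is not particular to the 3 called genes, and a single library allows no test. Vwf stayed called under all 20 alternatives run, with log2 values from 1.45 to 1.79. The value of 1.79 came with Y-linked CPM as a covariate, a fit that leans on mutant 1.

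**Figure D1:**
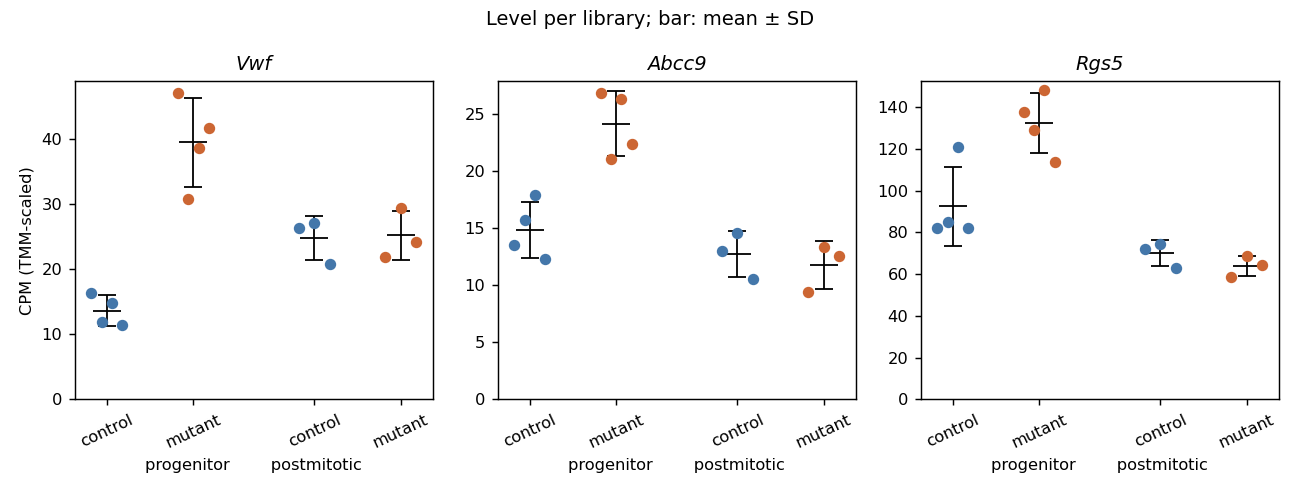
TMM-scaled CPM of Vwf, Abcc9 and Rgs5 in every library of both experiments, points for libraries (blue control, orange labelled mutant) and bars for the mean and SD. In the progenitor experiment the mutant points of Vwf (30.8 to 47.2 CPM) and Abcc9 (21.1 to 26.9 CPM) lie clear of the controls, those of Rgs5 overlap them, and in the postmitotic experiment the groups of all 3 genes overlap.

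Abcc9 encodes SUR2, the regulatory subunit of an ATP-sensitive potassium channel that marks brain pericytes. Its levels were 13.5, 15.7, 17.9 and 12.3 CPM in the progenitor controls and 26.9, 21.1, 26.3 and 22.4 CPM in the mutants, with no overlap. The rise was 0.70 ± 0.12 (log2, SE; edgeR adjusted p = 0.00247). It stayed called under all 20 alternatives, with edgeR adjusted p up to 0.0201, the value with Y-linked CPM as a covariate. Abcc9 lies on the minus strand of chromosome 6 at 142587862-142702315, and 158 bases of its exons overlap an exon of 5330439B14Rik on the other strand. Whether the authors counted by strand is not stated in the sources used, so reads of these 2 genes may be mixed.

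Kcnj8, which encodes the pore subunit Kir6.1 of the same channel, lies 16247 bases from Abcc9 and also rose, from 5.55 ± 0.587 to 7.53 ± 0.829 CPM (SD, n = 4), by 0.44 ± 0.12 (log2; edgeR adjusted p = 0.0251). Of the 12 tested genes within 1000000 bases of Abcc9, 3 were higher and none lower: Spx, Kcnj8 and C2cd5. Around Vwf, 4 of 43 tested genes were higher and 7 lower, and around Rgs5 1 of 11 was higher and 1 lower. Of all tested genes 12% were higher and 11.4% lower, so the counts around Vwf and Rgs5 are near the shares of all genes. Among the genes near Vwf, Ntf3, a neurotrophin gene, rose by 1.93 ± 0.37 (log2, edgeR adjusted p = 0.00466).

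Rgs5 encodes a regulator of G protein signalling that is abundant in pericytes. Of the mural members it had the highest level per length in the controls, 20.3 CPM per kb of exon. It was at 81.9, 84.7, 120.8 and 82.3 CPM in the progenitor controls and 137.5, 129.2, 148.0 and 113.9 CPM in the mutants. The groups overlap through 1 pair of libraries: control 3 was above mutant 4, and the other 3 controls were below every mutant. The rise was 0.52 ± 0.14 (log2, SE; edgeR adjusted p = 0.0254). This call was kept in only 2 of 8 fits with 1 library left out; it was lost without control 1, 2 or 4 and without mutant 1, 2 or 3, at adjusted p up to 0.0711, and with Y-linked CPM as a covariate (adjusted p = 0.140). The log2 value was 0.46 to 0.53 in the 6 fits that lost the call with 1 library left out, and 0.59 with the covariate.

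The stretches just upstream of the mural genes called as higher are shown, 250 bases before to 50 after the RefSeq start on GRCm38.p6. They are chr6:142702225-142702524 (minus strand) for Abcc9 and chr1:169655251-169655550 (plus strand) for Rgs5, each written 5′ to 3′. Capitals mark a match to AGATAA, the letters searched for GATA factors, on either strand.
Abcc9: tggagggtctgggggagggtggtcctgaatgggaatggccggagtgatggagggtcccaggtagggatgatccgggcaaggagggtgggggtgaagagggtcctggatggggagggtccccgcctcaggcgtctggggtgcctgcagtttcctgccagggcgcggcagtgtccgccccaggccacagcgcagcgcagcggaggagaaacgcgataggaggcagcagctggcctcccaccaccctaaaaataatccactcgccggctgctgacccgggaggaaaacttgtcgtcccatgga
Rgs5: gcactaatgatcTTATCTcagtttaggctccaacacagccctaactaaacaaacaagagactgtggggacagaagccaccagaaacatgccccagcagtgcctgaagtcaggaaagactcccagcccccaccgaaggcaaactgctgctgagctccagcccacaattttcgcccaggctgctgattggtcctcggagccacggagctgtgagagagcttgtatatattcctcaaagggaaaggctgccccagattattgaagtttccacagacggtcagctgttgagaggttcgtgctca
The Rgs5 window holds 1 such match, 238 to 233 bases before the start, read on the other strand, and the Abcc9 window holds no match to any of the motifs searched. AGATAA occurred in the windows of 12.7% of 27025 genes, so a match is common. Windows were at hand for 16 endothelial and 7 mural members. GGAAGT, the letters searched for ETS factors such as Erg, occurred on either strand in 6 of the 16 endothelial windows (Kdr, Flt1, Tie1, Ly6c1, Eng and Egfl7) and 1 of the 7 mural ones, against 26.5% of all genes. AACAAT, searched for SOX factors, occurred in 4 of 16 and 0 of 7 against 12.2%, and TATAAA in 5 of 16 and 1 of 7 against 15.7%. The CArG box, which serum response factor binds in contractile genes, occurred in 0 of 16 and 1 of 7 windows (Myl9) against 1.81%. None of these motif matches overlapped another in the 2 windows printed.

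The receptors and junction proteins that define endothelial cells were a little higher on average in the progenitor mutants, but their groups overlapped and none passed the test. Kdr, the main VEGF receptor of endothelial cells, was at 45.9, 49.1, 60.04 and 43.38 CPM in the controls and 76.6, 51.3, 69.0 and 63.6 CPM in the mutants. The top control lay between mutants 2 and 4, and the log2 fold change of 0.39 ± 0.13 did not pass (edgeR adjusted p = 0.0614). Erg, an ETS transcription factor of endothelial identity, and Eng, a co-receptor of the TGF-beta family, had log2 fold changes of 0.41 ± 0.15 and 0.35 ± 0.13 (edgeR adjusted p = 0.0614 and 0.0677).

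Pecam1, the junctional adhesion protein CD31, was at 21.3, 20.5, 26.6 and 20.1 CPM in the controls and 32.1, 22.4, 26.8 and 26.2 CPM in the mutants. Its log2 fold change was 0.28 ± 0.12 (edgeR adjusted p = 0.108), and control 3 again lay inside the range of the mutants. Cdh5, VE-cadherin of the adherens junction, ran from 16.2, 24.3, 33.9 and 20.5 CPM in the controls to 40.1, 19.0, 24.7 and 26.4 CPM in the mutants. Both groups spanned more than a doubling, and the log2 fold change was 0.22 ± 0.29 (edgeR adjusted p = 0.636). For Tek, the receptor of angiopoietins, its relative Tie1 and Flt1, the VEGF receptor that acts as a decoy, the log2 fold changes were 0.37, 0.34 and 0.27 with edgeR adjusted p of 0.280, 0.234 and 0.196.

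None of the genes of the barrier itself named here passed the test in the progenitor experiment. Cldn5, the main claudin of the brain endothelial tight junction and the highest endothelial member in the controls per length, at 44.6 CPM per kb of exon, was at 62.8, 53.4, 84.3 and 52.2 CPM in the controls and 84.9, 56.4, 73.0 and 71.7 CPM in the mutants. Its groups overlapped almost fully, with a log2 fold change of 0.18 ± 0.18 (95% interval -0.23 to 0.59; edgeR adjusted p = 0.508). Slc2a1, the glucose transporter GLUT1, was at 37.3, 32.8, 41.2 and 33.4 CPM in the controls and 41.6, 36.0, 44.2 and 39.1 CPM in the mutants. Its log2 fold change of 0.15 ± 0.09 had a 95% interval from -0.03 to 0.34. Mfsd2a, a lipid transporter that restrains transcytosis, and Abcb1a, the efflux pump P-glycoprotein, had log2 fold changes of 0.15 ± 0.10 and 0.39 ± 0.25 (edgeR adjusted p = 0.309 and 0.291).

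Only 4 members had a log2 fold change below 0 in the progenitor experiment, and none of these passed. Slco1a4, an organic anion transporter of the barrier, came nearest: it was at 8.67, 7.40, 8.64 and 9.76 CPM in the controls and 7.70, 7.20, 6.76 and 6.05 CPM in the mutants (-0.32 ± 0.12; edgeR adjusted p = 0.0729). Control 2 lay within the range of the mutants and the other 3 controls lay above it. Ly6a and Ly6c1, surface proteins of a family of similar genes whose reads counting could split, and Pltp, a phospholipid transfer protein, had log2 fold changes of -0.41, -0.11 and -0.09.

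Pdgfrb, the receptor that holds pericytes to vessels, was at 26.3, 27.5, 38.2 and 28.9 CPM in the progenitor controls and 45.3, 30.0, 38.2 and 42.8 CPM in the mutants. Only control 3 reached the range of the mutants, and the log2 fold change was 0.37 ± 0.15 (edgeR adjusted p = 0.106). The authors' deposited table, made with DESeq2, lists 4 endothelial members (Kdr, Eng, Vwf and Erg) and 3 mural members (Abcc9, Pdgfrb and Rgs5) at an adjusted p under 0.05, all higher in mutants. Calls were common with that method. DESeq2 run here called the same members and 3972 genes in all. The main edgeR fit called 3577, or 23.4% of its tested genes. In the authors' deposited table of the postmitotic experiment, no member with an adjusted p passes.

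The remaining mural members gave no call and, for several, wide intervals. Vtn, the secreted matrix protein vitronectin made by pericytes, was at 19.9, 38.5, 57.4 and 37.6 CPM in the controls and 62.7, 19.0, 28.4 and 45.1 CPM in the mutants. It varied 2.88-fold between controls and 3.30-fold between mutants, and its log2 fold change of 0.01 ± 0.46 has a 95% interval from -1.09 to 1.12, which would hold a doubling in either direction. Acta2, the actin of smooth muscle, was near the lower end of detection for this list, at 0.814, 2.097, 3.208 and 1.409 CPM in the controls and 4.0, 1.38, 1.53 and 2.38 CPM in the mutants (0.30 ± 0.45; edgeR adjusted p = 0.668). Anpep, the aminopeptidase CD13, and Foxc1, a transcription factor of pericytes and meninges, varied 3.53-fold and 2.67-fold between controls. Tagln, Myl9 and Higd1b had log2 fold changes of 0.12, 0.04 and 0.27.

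**Figure D2:**
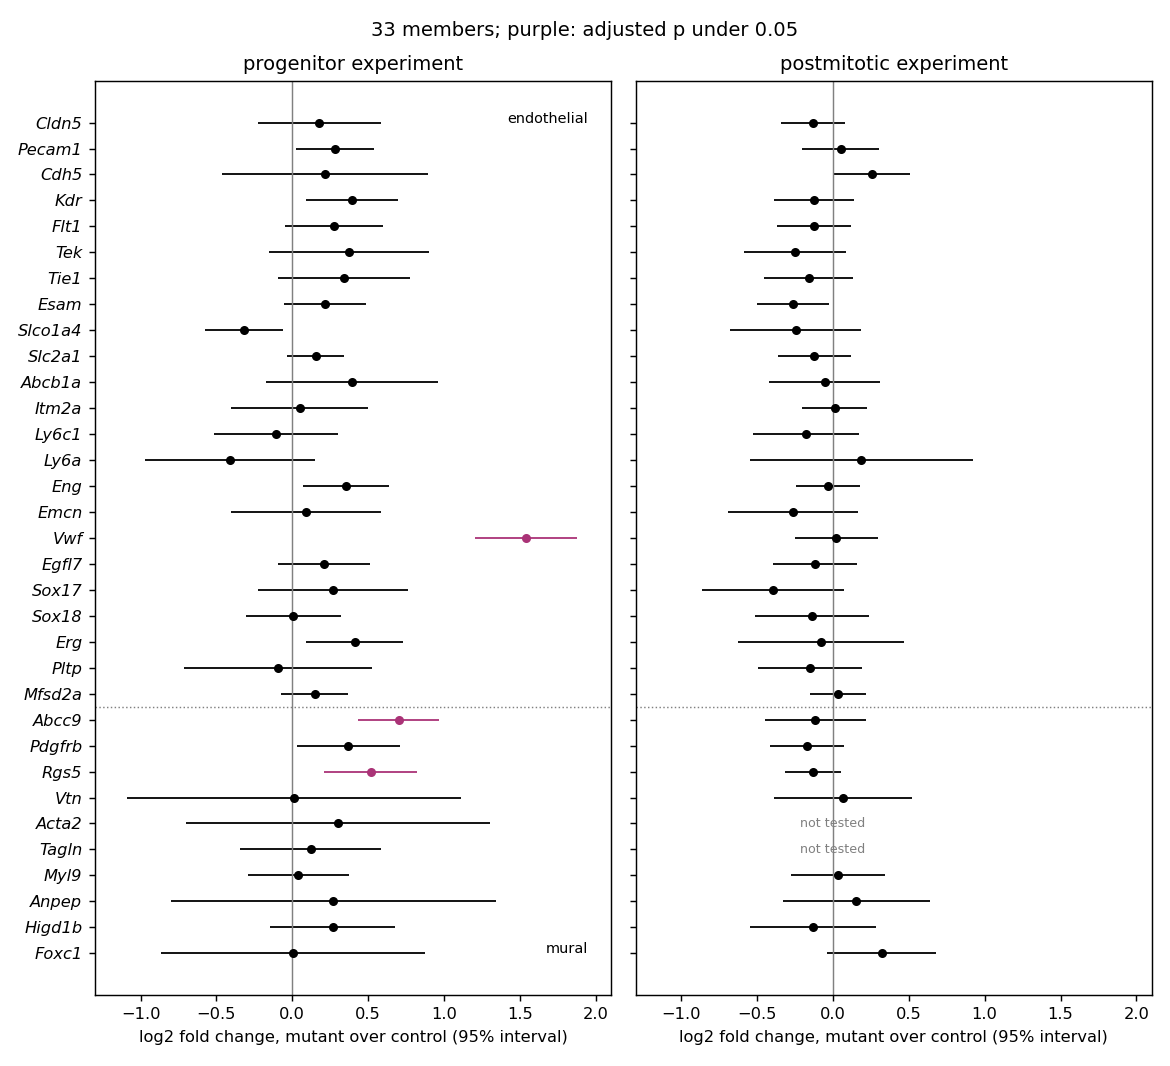
Log2 fold change of each member, libraries labelled mutant over control, with its 95% interval, in the progenitor (left) and postmitotic (right) experiments; endothelial members are above the dotted line and mural members below. Vwf at 1.54, Abcc9 at 0.70 and Rgs5 at 0.52 are the purple points that passed, and no point passed in the postmitotic experiment, where Acta2 and Tagln were below the filter on low counts.

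The members varied together from library to library, so that the libraries carried much of the spread within a group. Progenitor control 3 held the highest of the 4 control values for 29 of the 33 members, and mutant 1 the highest of the mutant values for 30 of 33. Mutant 2 held the lowest mutant value for 28 of 33. The summed CPM of the 23 endothelial members was 490, 470, 640 and 454 in the controls and 750, 497, 629 and 588 in the mutants, with means of 513 ± 86.0 and 616 ± 105 (SD, n = 4). The summed CPM of the 10 mural members was 165, 194, 279 and 190 in the controls and 323, 226, 269 and 253 in the mutants. Both sums overlap between the groups, with control 3 in the range of the mutants. Rgs5 alone makes up 42.6% to 57.2% of the mural sum across the progenitor libraries.

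Markers of fibroblasts and meninges, the membranes that cover the cortex beside layer II/III, followed this pattern in part of the libraries. The summed CPM of the 14 markers was 63.9, 479.7, 895.2 and 436.8 over the progenitor controls in order and 988.8, 138.7, 111.3 and 358.1 over the mutants. It was highest in control 3 and mutant 1, the same libraries that were highest for most members, and lowest in control 1, which was lowest for 8 of 10 mural members. In other libraries the order differed: mutant 3 had the lowest sum of the mutants beside the second highest endothelial and mural sums, and control 1 had the second highest endothelial sum of the controls. None of the 14 markers was called in either direction, and their part in the levels of the members was not tested. Vwf, Abcc9 and Rgs5 were called with control 3 and mutant 1 both left out, a choice made after seeing the data, and Kdr, Tek and Pdgfrb were then called too. Without control 3 alone, 7 endothelial members passed (Pecam1, Kdr, Tek, Tie1, Eng, Vwf and Erg) along with Abcc9, Pdgfrb and Rgs5, and without mutant 2 alone 5 did (Pecam1, Kdr, Eng, Vwf and Erg), with Abcc9 and Pdgfrb. Calls were common over all genes in these fits too. They numbered 3712 without control 3, 2955 without mutant 2 and 2580 with control 3 and mutant 1 left out. The main fit called 3577, or 23.4% of tested genes. The mural median of 0.27 became -0.06 without mutant 1 and 0.05 without control 1.

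**Figure D3:**
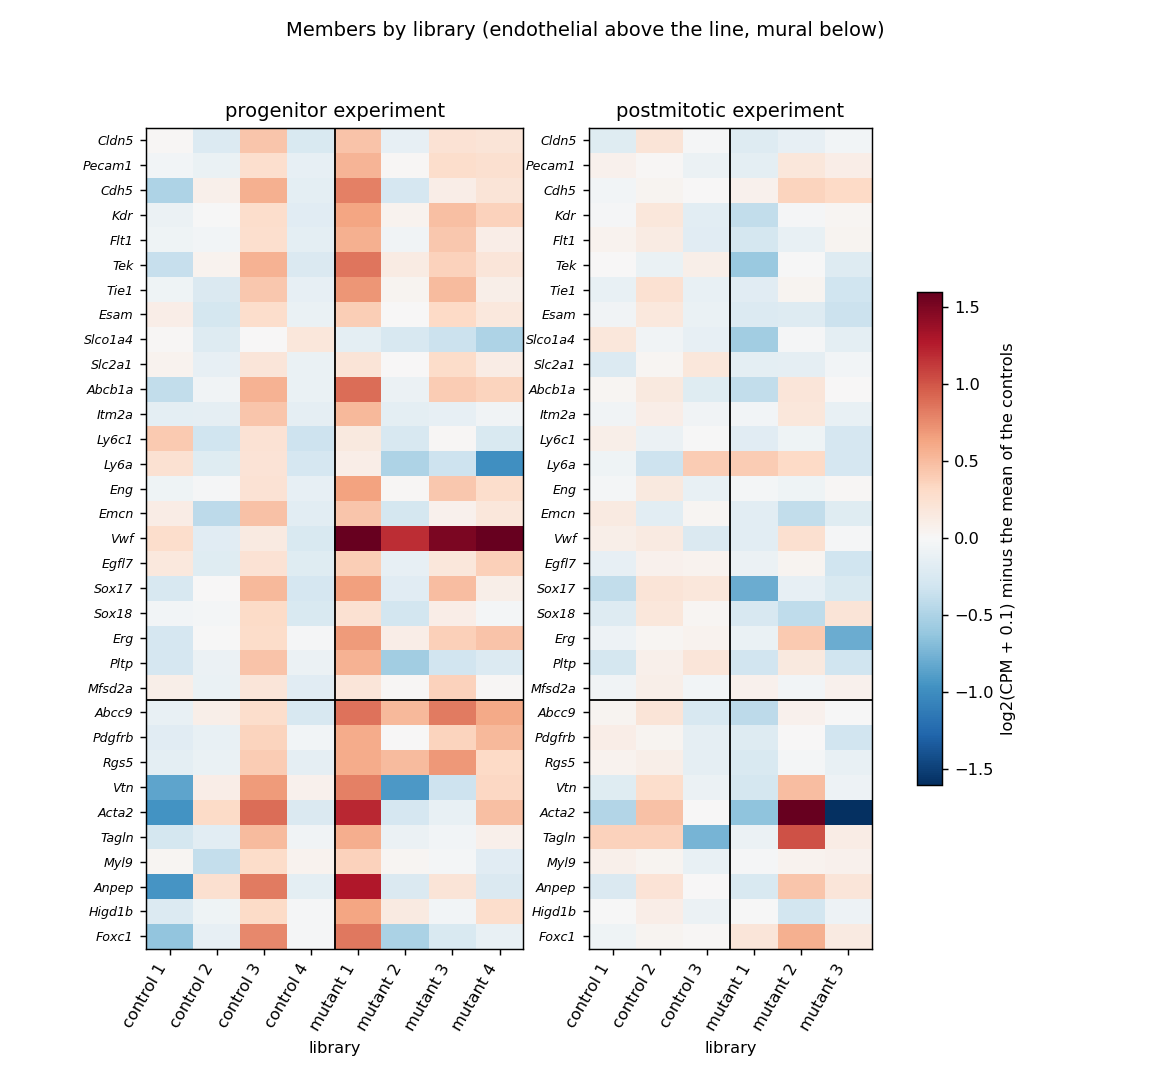
Level of every member in every library as log2(CPM + 0.1) minus the mean of that experiment's controls, red for higher and blue for lower, with libraries in columns and the vertical line between control and labelled mutant. Columns progenitor control 3 and mutant 1 are red for most members, while Vwf, Abcc9 and Rgs5 are red in all 4 progenitor mutants. All 4 mutants also lie above the control mean for members not called, such as Kdr, Eng and Erg, by less in their lowest library.

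Markers of other cell types were counted between the same progenitor groups, where 12% of all tested genes were called as higher and 11.4% as lower. Of 21 microglia and macrophage markers, 2 were lower (Aif1 and Ctss) and none higher, a share near that of all genes. Their median log2 fold change was -0.34. Of 10 astrocyte markers, 4 were lower (Gfap, Slc1a2, S100b and Aldoc) and none higher, while 4 had a log2 fold change above 0. Of 9 excitatory neuron markers 3 were higher and 1 lower, and of 6 interneuron markers 2 were lower and none higher. Of 12 cell cycle genes, 7 were higher, Top2a among them by 0.60 ± 0.12 (log2; edgeR adjusted p = 0.00527). Alas2, the erythroid enzyme of haem synthesis, was higher by 1.05 ± 0.16 (log2; edgeR adjusted p = 0.00146), while all 4 globin genes are listed at 0 in each progenitor library, so that blood left in the vessels cannot be read from them. What part these differences have in the vessel genes was not tested.

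**Figure D4:**
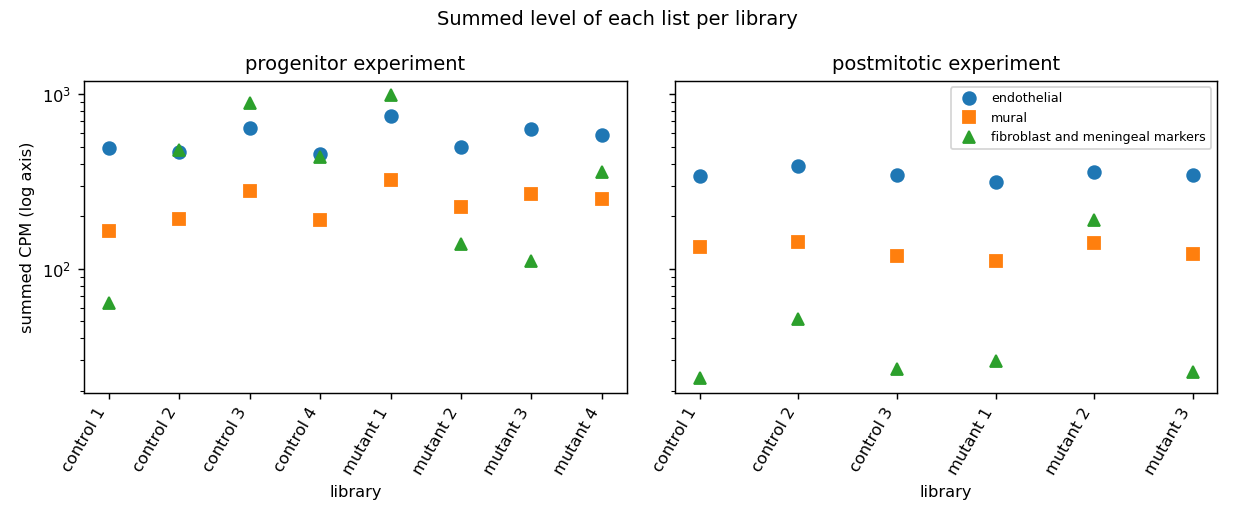
Summed TMM-scaled CPM, on a log axis, of the 23 endothelial members (circles), the 10 mural members (squares) and the 14 fibroblast and meningeal markers (triangles) in each library. The endothelial sum stays between 454 and 750 CPM in the progenitor and 315 and 388 CPM in the postmitotic libraries, while the meningeal sum runs from 63.9 to 988.8 CPM in the former and stands apart at 191 CPM in postmitotic mutant 2.

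In the postmitotic experiment no member was called, 0 of 23 endothelial and 0 of the 8 mural members tested, where 1.96% of 17775 tested genes were (0.895% higher, 1.06% lower). At an unadjusted p under 0.05 there were 2 members, Cdh5 and Esam, where 11.4% of all tested genes passed that level. DESeq2 and limma-voom also called 0. The median log2 fold change was -0.12 over endothelial and -0.04 over mural members, and 10 of 31 were above 0, against 49.4% of all tested genes. For 17 of the 31, the 95% interval lay within 0.5 of 0 on the log2 scale.

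Vwf was at 26.3, 27.2 and 20.9 CPM in postmitotic controls 1 to 3 and at 22.0, 29.5 and 24.2 CPM in the mutants. The groups interleave, with means of 24.8 ± 3.42 and 25.2 ± 3.84 CPM (SD, n = 3) and a log2 fold change of 0.02 ± 0.13. Its 95% interval, -0.25 to 0.30, lies below the whole interval of the progenitor experiment. Vwf was 6.07% to 7.72% of the endothelial sum in these controls and 6.98% to 8.201% in the mutants; the levels of the experiments come from separate tables and were not compared by a test.

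Abcc9 was at 13.04, 14.63 and 10.58 CPM in the postmitotic controls and 9.40, 13.3 and 12.6 CPM in the mutants. Rgs5 was at 72.2, 74.6 and 63.0 CPM in the controls and 58.7, 68.5 and 64.4 CPM in the mutants. Both overlapped, with log2 fold changes of -0.12 ± 0.15 and -0.13 ± 0.08 (edgeR adjusted p = 0.837 and 0.615). Kcnj8, the partner of Abcc9, had a log2 fold change of -0.11 ± 0.17.

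Cdh5 was at 11.8, 12.5 and 12.2 CPM in the postmitotic controls and 12.8, 15.6 and 15.2 CPM in the mutants, which lay above the controls without overlap (0.26 ± 0.12; edgeR adjusted p = 0.421). Esam, an adhesion protein of the tight junction, lay without overlap the other way, at 17.6, 20.5 and 17.0 CPM in controls and 15.8, 15.8 and 14.4 CPM in mutants (-0.26 ± 0.11; edgeR adjusted p = 0.373). Foxc1 was the third member with no overlap, higher in mutants (0.32 ± 0.17; edgeR adjusted p = 0.508). Of all tested genes, 7.99% lay without overlap higher and 8.43% lower.

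For the other defining genes, Cldn5 was at 38.7, 50.9 and 43.8 CPM in postmitotic controls and 38.4, 40.5 and 42.7 CPM in mutants, and its log2 fold change of -0.13 ± 0.10 has a 95% interval from -0.35 to 0.08. Pecam1 was at 15.9, 15.4 and 14.2 CPM in controls and 13.6, 17.2 and 16.4 CPM in mutants. Kdr was at 35.5, 41.1 and 32.3 CPM in controls and 27.5, 35.7 and 36.8 CPM in mutants. All 3 genes overlapped between the groups. Slc2a1 was at 18.7, 22.2 and 24.6 CPM in controls and 19.5, 19.6 and 21.0 CPM in mutants, and Pdgfrb at 22.3, 21.4 and 18.7 CPM against 18.04, 20.78 and 16.70 CPM. Both overlapped between the groups, with log2 fold changes of -0.12 and -0.17. Vtn was at 12.4, 17.3 and 13.4 CPM against 11.7, 20.1 and 13.4 CPM. Its highest value was in mutant 2, as was that of Acta2, which fell below the filter on low counts and was at 0.24, 0.55 and 0.37 CPM in controls and 0.20, 2.16 and 0.04 CPM in mutants. In mutant 2 the fibroblast and meningeal markers summed to 191 CPM, against 23.6 to 51.6 CPM in the other 5 libraries; it held the highest mutant value for 22 of the 33 members.

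The difference between the experiments was tested directly, as the interaction of experiment and label in all 14 libraries, where 6.94% of 15643 genes were called and 3.84% were called as lower in the postmitotic experiment. The log2 fold change of Vwf differed by -1.52 ± 0.22, postmitotic minus progenitor (SE, 95% interval -1.99 to -1.04; edgeR adjusted p = 0.00133). It was called under all 19 alternatives of this test, which did not include Y-linked CPM as a covariate. Y reads were in 0 of 4 control and 3 of 4 mutant progenitor libraries, but in 2 of 3 control and 1 of 3 mutant postmitotic libraries. The part of sex in the difference was not tested. For Abcc9 the difference was -0.82 ± 0.21 (edgeR adjusted p = 0.0271), and the call was kept in 8 of 14 fits with 1 library left out. It was lost without progenitor control 4, mutant 1 or mutant 3 and without postmitotic control 1, control 2 or mutant 1, at adjusted p up to 0.0806. For Rgs5 it was -0.65 ± 0.18 (edgeR adjusted p = 0.0493), a call kept in 2 of those 14 fits, without progenitor control 3 or mutant 4, and lost with RLE factors (adjusted p = 0.0520) or with no filter on low counts (0.0843). The other 30 members did not pass, Esam coming nearest at -0.48 ± 0.17 (edgeR adjusted p = 0.104).

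Among other genes of vessels, 137 tested in the progenitor experiment from 9 related lists, 25 were higher and 6 lower, with a median log2 fold change of 0.18. The 18 further pericyte genes held 5 higher and none lower: Atp13a5 (0.80 ± 0.15), an ion pump of brain pericytes, Notch3 (0.62 ± 0.14), the Notch receptor of mural cells, Mcam (0.48 ± 0.09), an adhesion protein, Cspg4 (0.46 ± 0.07), the proteoglycan NG2, and Kcnj8. Cspg4 also marks oligodendrocyte precursors, whose marker Pdgfra rose by 0.34 ± 0.05 in the same libraries. Of the 7 oligodendrocyte lineage markers 2 were higher, Pdgfra and Mog (0.31 ± 0.09), and none lower; the other 5 had log2 fold changes below 0, and the median of the 7 was -0.11. Of 27 further endothelial genes 6 were higher and none lower, led by Adgrf5 (0.63 ± 0.11), an adhesion receptor, Robo4 (0.62 ± 0.13), an endothelial Robo receptor, and Ushbp1 (0.58 ± 0.15). Over the 9 lists 18.2% of the 137 genes were called as higher, against the 12% of all genes. The lists were chosen with earlier results of these data known, so this share is a description and cannot test for a rise of vessel genes. Their genes were also not independent: control 3 and mutant 1 had the highest sums of their groups for every list but the response to low oxygen. The count of 25 ran from 13 to 41 when single libraries were dropped. None of the further pericyte or endothelial genes was called in the postmitotic experiment.

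Of 12 basement membrane genes 3 were higher in the progenitor experiment, Lama5 (0.64 ± 0.17) and Lama4 (0.32 ± 0.10), laminin chains, and Col4a2 (0.56 ± 0.16), a collagen IV chain; none was lower. Of 8 other smooth muscle genes none was called, Tpm2 and Myh11 having log2 fold changes of 0.57 ± 0.23 and 0.63 ± 0.26 (edgeR adjusted p = 0.0931 and 0.103). Of 24 genes of barrier junctions and transport, Cgn, the tight junction protein cingulin, rose from 16.5 ± 1.64 to 34.2 ± 6.48 CPM (SD, n = 4; 1.05 ± 0.14 on the log2 scale; edgeR adjusted p = 0.0008), Tfrc, the transferrin receptor, rose by 0.34 ± 0.09 and Abcg2, an efflux pump, fell by 0.24 ± 0.07.

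Genes of signalling to vessels, ligands, receptors and targets, were called in both directions. In the progenitor experiment 2 of 15 VEGF and angiopoietin genes were higher and 1 lower. The 15 barrier Wnt genes gave the same counts. Both lists are near the shares of all tested genes, 12% higher and 11.4% lower. Nrp1, a VEGF and semaphorin co-receptor that neurons also express, was higher in both experiments, by 0.47 ± 0.09 and 0.52 ± 0.09 (edgeR adjusted p = 0.00513 and 0.00661). Vegfa rose by 0.31 ± 0.09 and Angpt1 fell by 0.37 ± 0.10 in the progenitor experiment (edgeR adjusted p = 0.0260 and 0.0237), and Vegfd rose in the postmitotic one by 1.26 ± 0.25 from 1.74 CPM (edgeR adjusted p = 0.0162). Wnt7b, a neural Wnt ligand that acts on brain vessels, was lower in both, by -0.56 ± 0.11 and -0.58 ± 0.13 (edgeR adjusted p = 0.00579 and 0.0405), while Ndp, the ligand norrin, and Fzd6, a frizzled receptor, were higher in the progenitor experiment by 0.50 ± 0.12 and 0.47 ± 0.15. Of 9 Notch and tip cell genes 4 were higher (Notch4, Notch1, Cxcr4 and Unc5b) and Hey1, a Notch target, was lower by -0.25 ± 0.06. Of 11 genes of the response to low oxygen, Vegfa and Pfkfb3 were higher and Slc2a3 and Bnip3 lower, and Ndrg1 was higher in the postmitotic experiment by 0.36 ± 0.06 (edgeR adjusted p = 0.0104).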

How the data were processed

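Polyadenylated RNA of 14 libraries in 4 groups was sequenced as paired reads (150 bases each) with a directional NEBNext kit, per the labels' protocols, and is analysed here from 2 count tables. The submitters' processing notes name HISAT2, featureCounts, DESeq2 and build mm10 without versions; the annotation and strand setting are not stated in the sources used. The deposited counts are whole-number reads per gene symbol, not normalised, and the files hold 0 columns of other samples. The authors also deposited DESeq2 tables with log2 fold changes, p-values, adjusted p-values, the mean normalised count (a signal) and its test statistic; missing values there are written as 0 and were not read as calls.

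Each experiment was fitted alone with edgeR 4.0.16 in R 4.3.3: filterByExpr, TMM factors, robust glmQLFit, glmQLFTest and Benjamini-Hochberg adjustment over all tested genes, called at an adjusted p under 0.05. CPM use TMM-scaled totals. The SE is the log2 fold change divided by the square root of F. The difference between experiments was their interaction with the label, fitted on the 14 libraries together over 24690 shared symbols. Counts of a list and its median are descriptions with no test. Positions and exons are those of GENCODE M21 on GRCm38, and promoter windows come from RefSeq on GRCm38.p6. In 8 members an exon overlaps that of a gene on the opposite strand. The fits were checked on simulated counts.

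Members and lists were chosen with earlier results of these data known. Per-library values are given for each member called in any test and for Cldn5, Pecam1, Cdh5, Kdr, Slc2a1, Pdgfrb, Rgs5, Vtn and Acta2. Those of Slco1a4 and Esam were added after their values were seen. For each related list up to 3 genes with the smallest p are named, and further called genes were named after their values were seen. Alternatives were DESeq2 1.42.0, limma-voom (limma 3.58.1), RLE and upper-quartile factors, library totals alone, other filters, no robust step, the replicate number as a block, Y-linked CPM (Ddx3y, Eif2s3y, Kdm5d and Uty) as a covariate, 1 fit of all libraries, postmitotic libraries 1 and 2 alone, and each library left out. For the difference between experiments the alternatives were only DESeq2, RLE factors, no filter on low counts, the replicate block and libraries left out. Between replicates the chi-square per degree of freedom was 6.73 to 20.7, above sampling noise. This cannot show that libraries came from separate animals. Each library was treated as its own sample in the fits.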

Additional observations from a re-analysis of the deposited data

Results flagged for a closer look

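In 2 groups of 4 libraries 1 library stood far from the other 3 for a member. Itm2a, an X-linked endothelial membrane protein gene, was at 55.4 CPM in progenitor control 3 against 36.5 to 37.0 CPM in the other controls, and at 58.2 CPM in mutant 1 against 36.7 to 39.0 CPM in the other mutants. Rgs5 was at 120.8 CPM in progenitor control 3 against 81.9 to 84.7 CPM in the other controls. The gap was judged by Dixon's test, which flags about 1 in 20 groups by chance, and 70 groups were examined. Both libraries also had the highest sums of fibroblast and meningeal markers; the part of those cells in these values was not tested.

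For 3 members the log2 fold change differed between the experiments in edgeR's interaction test, postmitotic minus progenitor: Vwf by -1.52, Abcc9 by -0.82 and Rgs5 by -0.65.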

How the results depend on the processing

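No result changed direction while past its threshold under the alternatives run. No member was called as lower in the progenitor experiment, and none was called in either direction in the postmitotic one, under any alternative. The progenitor count of endothelial members called higher, 1, became 4 with DESeq2, 2 with limma-voom, 2 without the robust step, 3 in 1 fit of all libraries, 3 with control 3 and mutant 1 left out, and 1 to 7 with 1 library left out. The mural count, 2, was 1 to 3 with 1 library left out. Over all genes the main fit called 3577. This became 3972 with DESeq2, 3571 with limma-voom, 3601 without the robust step and 3750 in 1 fit of all libraries. With control 3 and mutant 1 left out it was 2580. Y-linked CPM as a covariate gave 2 endothelial members (Eng and Vwf) and 1 mural member (Abcc9), with medians of 0.52 and 0.64. It gave 12 related genes higher and 2 lower, and 948 of all genes called instead of 3577. Only mutant 1 among the mutants lacks Y reads, as the controls do, so the label effect in this fit leans on that library. Mutant 1 held the highest mutant value for 30 of 33 members. With 1 library left out, the medians ran from 0.14 to 0.35 and from -0.06 to 0.44, all genes called from 2383 to 3712, related genes higher from 13 to 41 (25 in the main fit) and lower from 4 to 7 (6 in the main fit); the last was 3 with control 3 and mutant 1 left out.

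In the postmitotic experiment all genes called, 348, became 723 with no filter on low counts and 160 to 467 with 1 library left out. Its 3 related genes higher became 5 with no filter, 1 in the fit of all libraries and 1 to 3 with 1 library left out; the 1 lower, Wnt7b, became 2 with DESeq2, 0 with the Y covariate, 0 with libraries 1 and 2 alone, 0 in the fit of all libraries and 0 to 1 with 1 library left out. For the difference, 2 endothelial members were called with the replicate block and 1 to 2 with 1 library left out. The 2 mural members became 1 with RLE factors, 1 with no filter and 0 to 3 with 1 library left out, and all genes called, 1086, became 1643 with DESeq2, 659 with the replicate block and 598 to 1481 with 1 library left out. The cause was not tested.

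Same-numbered libraries did not deviate together (correlations -0.44 to 0.09 over 4 progenitor pairs and -0.20 to 0.03 over 3 postmitotic pairs), so the numbers were not taken as pairs. The replicate block gave 3073 called genes in the progenitor experiment, with the same 3 members, and 246 in the postmitotic one, with no member. Depth limits Acta2, Tagln and Ly6a in the postmitotic libraries, which had as little as 1 count of a member.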
